A study of Mus musculus with 6 samples.

Results

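The Wnt ligands, their receptors and the proteins that set the strength of Wnt signaling of the mouse anterior prostate (AP) were examined by RNA-seq. Genes were taken by symbol. The set holds every Wnt, Fzd, Dkk, Dkkl1 and Sfrp gene and 15 named genes of the core pathway, Lrp5, Lrp6, Axin1, Axin2, Apc, Ctnnb1, Lef1, Tcf7, Tcf7l1, Tcf7l2, Lgr4, Lgr5, Rnf43, Znrf3 and Wif1. This gave 53 of the 55076 rows of the tables. Total RNA of the whole AP came from 3 OEx and 3 Ctrl male mice of 20 weeks, with 1 library per mouse. OEx mice carried Pbsn-Cre and 1 Rosa26 allele from which Cre releases the Notch1 intracellular domain (N1ICD), and Pbsn drives Cre in prostatic epithelial cells. Ctrl mice carried the same Rosa26 N1ICD allele without Cre, and the sample labels call them wild type. The question was how the Wnt genes differed between AP with and without N1ICD released by Cre in its epithelium.

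Wnt proteins are secreted signals that bind Frizzled receptors together with the co-receptors Lrp5 and Lrp6. In the canonical branch this stops a destruction complex, in which Axin and Apc hold beta-catenin for degradation, and beta-catenin then acts with Tcf and Lef factors on target genes. Sfrp, Dkk and Wif1 proteins are secreted and mostly hold Wnt signals back, Rnf43 and Znrf3 remove Frizzled receptors from the cell surface, and Lgr receptors bind R-spondins, which counter that removal. In the prostate, Wnt signals pass between stroma and epithelium and are known for their part in budding and in the upkeep of the gland.

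Promoters of 4 Wnt genes called in the comparison below are given first. Among called genes with a promoter window here, Wnt4 and Lgr4 had the highest log2 changes and Wif1 and Wnt6 the lowest, while Fzd6, which lay between Wnt4 and Lgr4, had no window. Each window runs from 250 bases before the start of transcription to 50 bases from it on, 5′ to 3′ on the strand of the gene, from RefSeq on GRCm38.p6. The capital letter that stands alone is the start base, and the run of capitals in Wif1 is a CACGTG E-box. The windows lie at chr4:137277385-137277684, chr2:109917397-109917696, chr10:121033754-121034053 and chr1:74771642-74771941, all on the plus strand.
Wnt4: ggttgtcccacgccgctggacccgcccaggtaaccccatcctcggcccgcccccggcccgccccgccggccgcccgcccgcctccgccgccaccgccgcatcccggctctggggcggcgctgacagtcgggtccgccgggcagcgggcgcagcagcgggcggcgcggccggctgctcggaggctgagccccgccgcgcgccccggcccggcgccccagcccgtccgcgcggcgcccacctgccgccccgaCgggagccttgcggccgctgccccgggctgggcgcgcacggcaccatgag
Lgr4: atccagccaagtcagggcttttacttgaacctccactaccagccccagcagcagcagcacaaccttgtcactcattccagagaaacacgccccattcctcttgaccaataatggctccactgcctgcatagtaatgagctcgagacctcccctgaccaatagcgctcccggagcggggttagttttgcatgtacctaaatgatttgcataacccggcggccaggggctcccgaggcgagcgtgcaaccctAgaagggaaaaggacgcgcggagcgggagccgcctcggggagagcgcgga
Wif1: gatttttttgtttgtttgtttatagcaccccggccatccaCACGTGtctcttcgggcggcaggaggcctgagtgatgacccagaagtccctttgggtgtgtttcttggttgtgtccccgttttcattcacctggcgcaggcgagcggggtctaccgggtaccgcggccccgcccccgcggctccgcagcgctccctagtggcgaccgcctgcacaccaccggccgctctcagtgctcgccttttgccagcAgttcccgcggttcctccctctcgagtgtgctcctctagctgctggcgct
Wnt6: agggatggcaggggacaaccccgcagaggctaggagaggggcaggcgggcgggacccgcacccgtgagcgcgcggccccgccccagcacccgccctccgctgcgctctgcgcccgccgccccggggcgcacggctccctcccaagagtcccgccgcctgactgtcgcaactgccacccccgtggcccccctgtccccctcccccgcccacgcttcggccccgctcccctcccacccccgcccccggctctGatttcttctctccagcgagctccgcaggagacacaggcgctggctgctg

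The GC content of these windows was 84.3% for Wnt4, 58.3% for Lgr4, 63% for Wif1 and 76.7% for Wnt6, against a median of 52.7% over 32851 windows of all genes and 66.7% over those of the Wnt genes. A promoter window was found for 35 of the 53 Wnt genes, 45 windows in all. Both strands were searched for GTGGGAA, the core of sites bound by RBPJ, the DNA-binding partner of N1ICD. It stood in 4 of the 45 windows (8.89%), which belong to Lef1, Tcf7l1 and Wnt9a, and in 6.38% of all windows. The 11 called Wnt genes with a window had 13 windows, and none held this RBPJ core. The Tcf and Lef core CTTTGAT stood in windows of Wnt5b and Wnt11 and in 3.73% of all windows. The E-box CACGTG, the kind of site that Hes and Hey repressors can use, stood in windows of Wif1, Wnt9a, Fzd9 and Lef1 and in 7.15% of all windows. In Wif1 it begins at position -210, counted from the start base as 0. The androgen receptor half-site TGTTCT stood in 9 of the 45 windows (20%) and in 19% of all windows. Of the called genes, Dkk2 and Rnf43 held it. Among the windows shown, only that of Wif1 held any of these motifs, and motifs did not overlap there. A match is a run of letters and not a measured binding site, and a window without one says nothing about the factor.

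Before the results, some features of the libraries bear on them. Depth recovered from the FPKM values (fragments per kilobase of gene, as scaled by the authors) was 14762182 to 18650962 reads on annotated genes. The denominators of the FPKM values were 1.22 to 1.35 times these reads in OEx mice. In Ctrl mice they were 0.726 to 0.815 times these reads, so the scaling differed between the groups. The target of the model, Notch1, was at 41.9, 47.6 and 78.9 FPKM in OEx mice and at 5.18, 5.55 and 3.34 FPKM in Ctrl mice, in the direction of the labels. Pbsn, Hoxb13 and Msmb, which mark the prostate epithelium, were detected in every mouse. Ctrl replicate 3 held 16128 FPKM over 8 seminal vesicle genes, against at most 4.36 FPKM in the other mice. OEx replicates 1 and 2 were more alike than either was to OEx replicate 3 (Pearson r across genes 0.991 against 0.950 and 0.951), and the same held in Ctrl mice (0.991 against 0.965 and 0.965). The tissue is a mixture of cells, so fewer cells of a type and less RNA per cell cannot be told apart. Of 4 basal epithelial markers (Krt5, Krt14, Krt15 and Trp63), all 4 were lower in every OEx mouse, with sums of 6.79 to 15.9 FPKM against 212 to 249 FPKM in Ctrl mice. Of 6 smooth muscle markers, all 6 were lower, with sums of 419 to 505 FPKM against 1252 to 2671 FPKM. The 6 fibroblast markers summed to 249.8, 252 and 25.1 FPKM in OEx replicates 1, 2 and 3. Their sum in Ctrl mice was 53.1 to 94.7 FPKM. Of these markers, Col1a1, Col1a2, Col3a1 and Lum were higher in OEx replicates 1 and 2 than in every Ctrl mouse. Dcn and Pdgfra were instead highest in Ctrl replicate 3, at 42.8 and 3.11 FPKM. OEx mice reached at most 37.2 FPKM for Dcn and 2.31 FPKM for Pdgfra. All 6 were lowest in OEx replicate 3. The 6 immune markers summed to 20.9, 20.0 and 5.45 FPKM in OEx mice and to 4.97 to 10.9 FPKM in Ctrl mice. The summed endothelial markers were at 5.83 to 7.02 against 11.4 to 16.6 FPKM. The part of these cell types in the differences of the Wnt genes was not tested.

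Of the 53 Wnt genes, 37 had a mean of at least 1 FPKM and were tested with limma among 12833 genes. A gene was called at a false discovery rate (FDR) under 0.05 and a fold change over 2 on log2(FPKM + 1). Log2 changes below are OEx minus Ctrl on this scale, with the standard error (SE) of the fit. Wnt4, Fzd6, Lgr4, Apc and Dkk2 were called higher in OEx mice (5 genes, 13.5% of those tested, against 12.9% of all tested genes). Wif1, Wnt6, Wnt2, Dkkl1, Sfrp2, Wnt10a, Tcf7, Fzd1, Rnf43, Fzd2 and Lgr5 were called lower (11 genes, 29.7%, against 15.7% of all tested genes). In both directions together 43.2% of the tested Wnt genes were called, against 28.6% of all genes. By the FDR alone, 10 Wnt genes were higher and 13 lower, against 30.7% and 36.5% of all tested genes. The groups did not overlap for 24 of the 37 genes (64.9%), against 72.4% of all genes, with OEx above in 11 of them and below in 13, against 33.4% and 38.9%. The median log2 fold change was 0.03 for the Wnt genes and -0.08 for all tested genes. How many Wnt genes stood on each side depended on how mice were scaled to each other. The 20 most abundant genes took up 7.29% to 9.02% of an OEx library and 27.3% to 34.1% of a Ctrl library. With library totals, which raised the median of all genes from -0.08 to 0.56, 11 Wnt genes were called higher and 4 lower (Wif1, Wnt6, Wnt10a and Dkkl1), against 30.6% and 4.59% of all tested genes. Wnt2, Sfrp2, Fzd1, Fzd2, Rnf43, Lgr5 and Tcf7 kept their sign and lost their call with library totals. Axin2, Ctnnb1, Lrp6, Sfrp1, Tcf7l2 and Wnt5b were called higher there. No gene called above changed its sign.

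**Figure D1:**
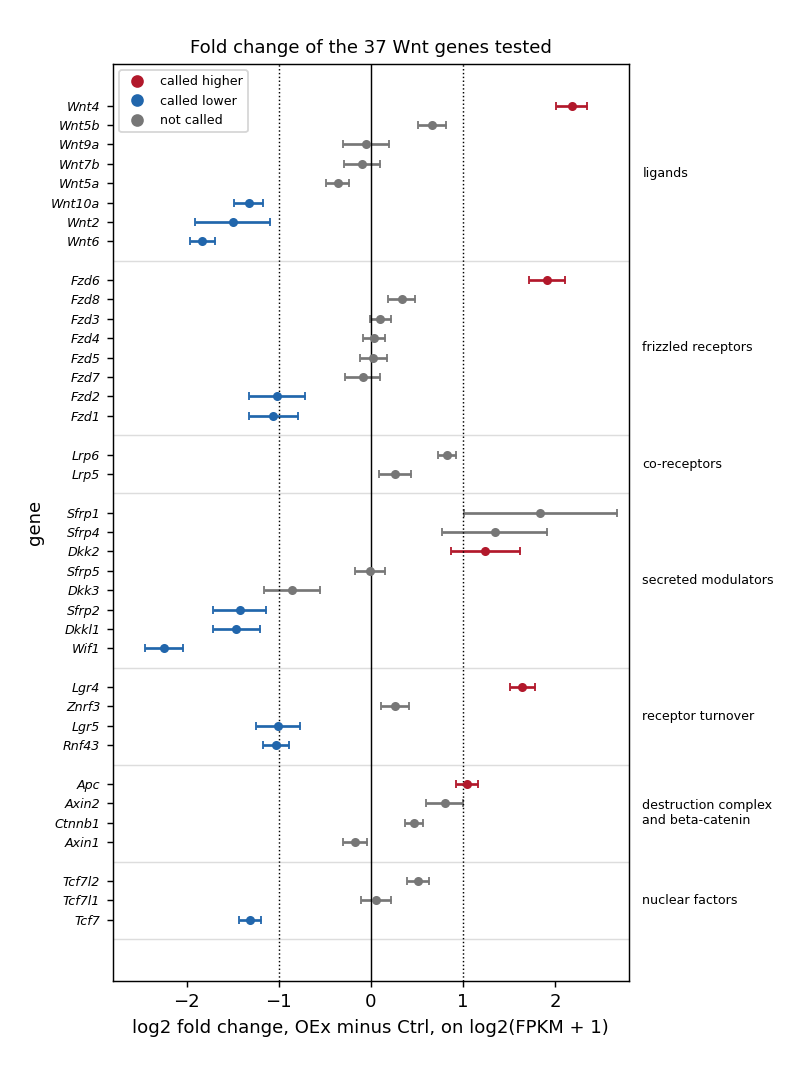
Log2 fold change of OEx minus Ctrl mice on log2(FPKM + 1) for the 37 tested Wnt genes, grouped by role (points, limma estimates, and bars, standard errors, 3 mice per group). Red genes were called higher and blue genes lower, dotted lines mark a log2 fold change of 1 in either direction, and genes called higher and genes called lower stand side by side among the ligands, the Frizzled receptors, the secreted modulators and the genes of receptor turnover.

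**Figure D2:**
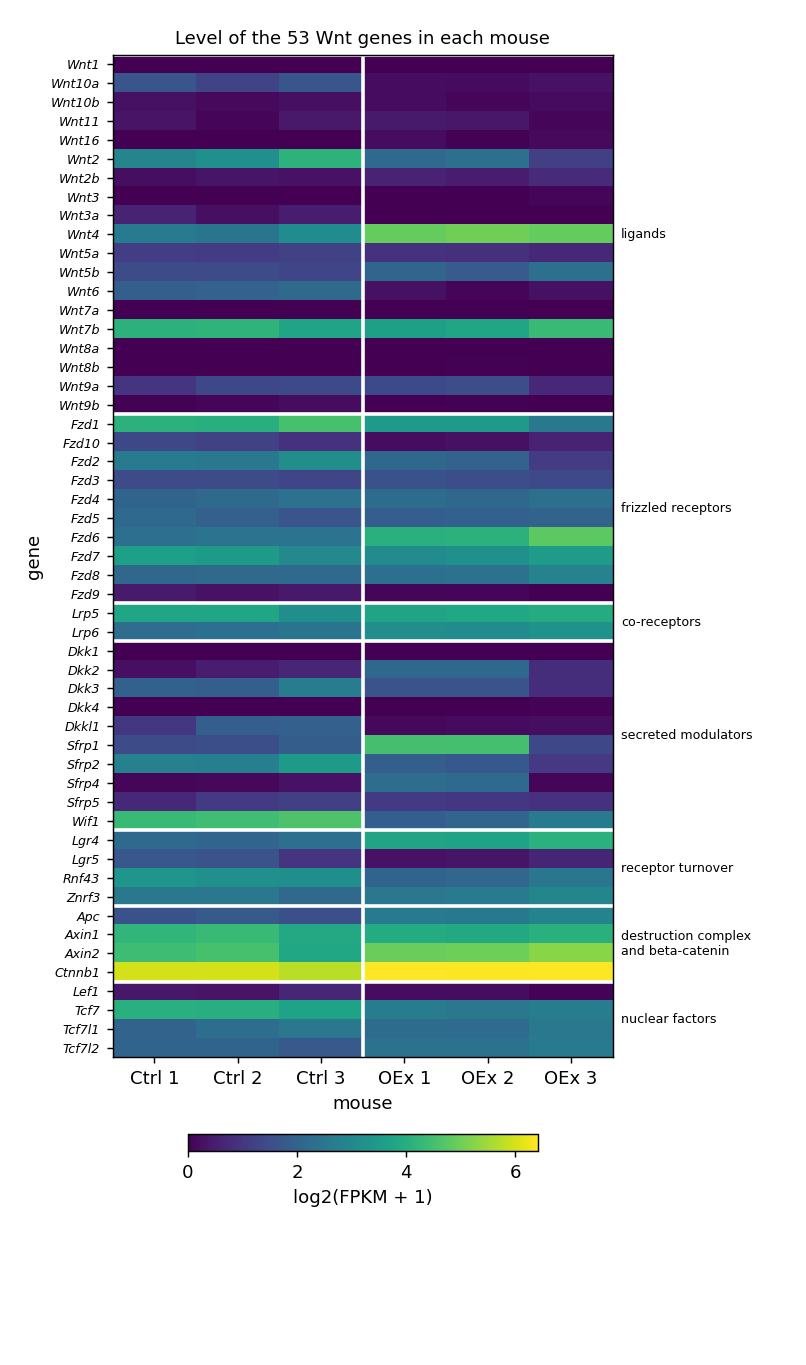
Level of each of the 53 Wnt genes in each mouse as log2(FPKM + 1), with genes in rows by role and mice in columns. Ctnnb1 is the brightest row in every mouse, Wnt4, Fzd6 and Lgr4 are brighter in the 3 OEx mice, and Sfrp1 is bright in OEx replicates 1 and 2 and not in OEx replicate 3.

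Among the ligands, the data show a change of the leading gene. Wnt4, a ligand needed in kidney and female duct development, was at 28.8, 31.1 and 28.8 FPKM in OEx mice and at 5.26, 4.59 and 7.72 FPKM in Ctrl mice. No Ctrl mouse reached the level of an OEx mouse, and the mean was 5.05 times that of Ctrl mice. Its log2 change was 2.18 (SE 0.168, limma FDR 8.39e-05), and it lies on chromosome 4 from 137277489 to 137299726. Wnt7b, the most abundant ligand in Ctrl replicates 1 and 2, was at 11.6, 12.9 and 18.8 FPKM in OEx and at 16.4, 17.1 and 12.5 FPKM in Ctrl mice. These ranges overlap (log2 change -0.10 ± 0.200 SE, limma FDR 0.692), and exons of Wnt7b overlap an antisense gene. The FPKM of all 19 ligands summed to 51.4 to 56.0 in OEx mice and to 38.4 to 48.8 in Ctrl mice. Wnt4 made up 51.5% to 57.1% of this sum in OEx mice and 11.5% to 15.8% in Ctrl mice, a share that no scaling of a mouse can alter. For Wnt7b the share was 22.5% to 33.6% against 25.5% to 42.9%.

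Wnt6 and Wnt10a, both ligands of epithelia, are neighbours on chromosome 1 with 6193 bases between them, and both fell. Wnt6 was at 0.229, 0.0798 and 0.227 FPKM in OEx mice and at 2.84, 3.07 and 3.66 FPKM in Ctrl mice. The OEx values rest on 10, 4 and 9 reads, the Ctrl mean was 17.9 times the OEx mean, and the log2 change was -1.83 (SE 0.132, limma FDR 6.93e-05). Wnt10a was at 0.162, 0.142 and 0.247 FPKM in OEx mice and at 2.20, 1.47 and 2.29 FPKM in Ctrl mice. The Ctrl mean was 10.8 times the OEx mean, on 8 to 11 reads per OEx mouse (log2 change -1.33 ± 0.156 SE, limma FDR 4.10e-04). The FPKM pseudocount of 1 shortens such changes, and with limma-voom on recovered reads the log2 fold changes were -4.26 for Wnt6 and -3.42 for Wnt10a. In these mice the summed basal markers were lower too, as given above.

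Wnt2, a ligand known from mesenchyme, also fell. It was at 3.56, 4.13 and 1.33 FPKM in OEx and at 6.52, 8.25 and 16.7 FPKM in Ctrl mice. The groups did not overlap, but each held 1 mouse far from the other two, the lowest OEx value in replicate 3 and the highest Ctrl value in replicate 3 (log2 change -1.50 ± 0.409 SE, limma FDR 0.0158). Its share of the summed ligands was 2.37% to 7.57% in OEx mice and 17.0% to 34.1% in Ctrl mice. Among the other tested ligands, Wnt5b was higher and Wnt5a lower by the FDR alone. Both are known for beta-catenin-independent signaling. Wnt5b was at 3.27, 2.55 and 4.17 FPKM in OEx and at 1.78, 1.80 and 1.54 FPKM in Ctrl mice (log2 change 0.66, limma FDR 0.00841). Wnt5a was at 0.871, 0.811 and 0.637 FPKM against 1.24, 1.16 and 1.41 FPKM (log2 change -0.36, limma FDR 0.0403), its exons overlap an antisense gene, and its log2 fold change was 0.03 with library totals. Wnt9a overlapped between groups, at 0.649 to 1.87 FPKM in OEx and 0.984 to 1.72 FPKM in Ctrl mice.

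The other 11 ligands were under the filter. Wnt1, Wnt7a and Wnt8a had no read in any mouse. Wnt3a, a strong canonical ligand, had no read in the 3 OEx mice and 18, 7 and 17 reads in the Ctrl mice. Taking 3 reads per library as the limit that a count of 0 allows, the Ctrl mean of Wnt3a was 6.92 times this limit in OEx mice. Wnt16 had no read in Ctrl mice and 13, 2 and 10 reads in OEx mice. The OEx mean was 1.93 times the limit in Ctrl mice, which was 0.0453 to 0.0550 FPKM. OEx replicate 2, at 0.0201 FPKM, lay under that limit. Wnt2b had 46, 39 and 53 reads in OEx and 9, 16 and 16 reads in Ctrl mice, and was called higher by limma-voom on recovered reads (log2 change 1.13, limma-voom FDR 0.0375). Wnt11 ranged from 6 to 32 reads in OEx and from 3 to 22 in Ctrl mice, Wnt10b 7 to 11 and 5 to 10, and Wnt9b 0 to 2 and 1 to 11. Wnt3 and Wnt8b had at most 3 reads in any mouse, which is not above the limit of a count of 0. These limits cover the counting error of a count of 0 only, and not that of the group with reads.

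**Figure D3:**
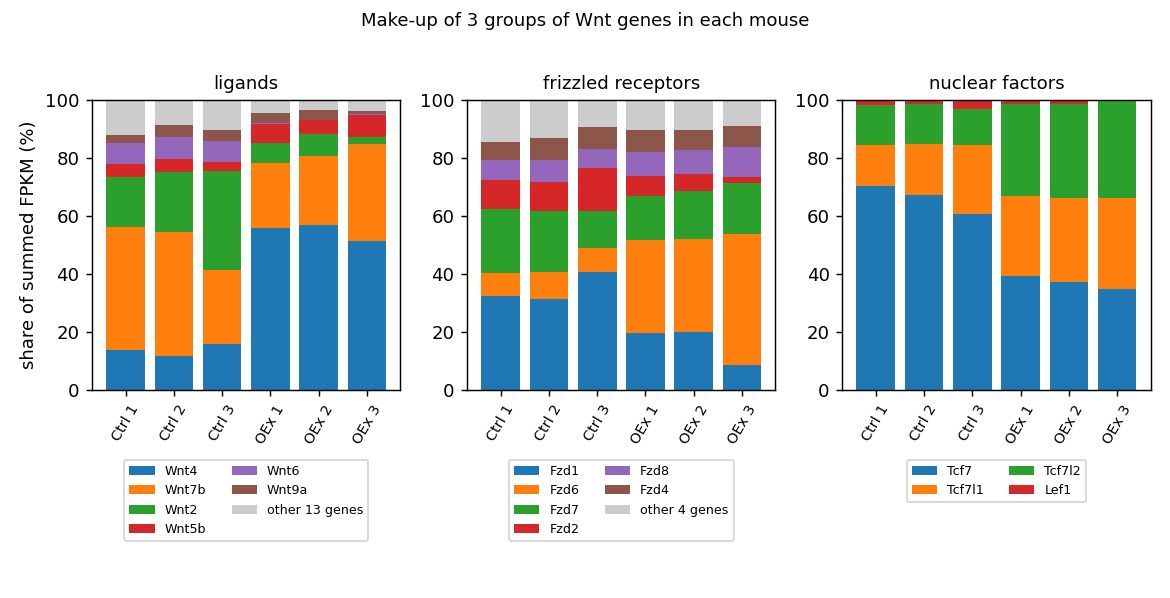
Share of each gene in the summed FPKM of the 19 ligands, the 10 Frizzled receptors and the 4 nuclear factors, in percent, for each mouse. Colours mark up to 6 genes with the highest mean share in each panel and grey the rest, and Wnt4 takes over 51% of the ligands in each OEx mouse and under 16% in each Ctrl mouse.

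Of the 8 Frizzled genes tested, Fzd6 rose and Fzd1 and Fzd2 fell, while the other 5 were not called. Fzd6, a receptor known from planar cell polarity and hair patterning, lies on chromosome 15 from 39006034 to 39038188 and overlaps an antisense gene in its exons. It was at 15.7, 16.2 and 26.6 FPKM in OEx mice and at 4.06, 4.42 and 4.43 FPKM in Ctrl mice. Every OEx mouse lay above every Ctrl mouse (log2 change 1.91 ± 0.198 SE, limma FDR 2.40e-04). Fzd1 was at 9.77, 10.1 and 5.02 FPKM in OEx and at 16.3, 15.1 and 22.2 FPKM in Ctrl mice (log2 change -1.06 ± 0.266 SE, limma FDR 0.0115). Fzd2 was at 3.43, 3.02 and 1.18 FPKM in OEx and at 5.08, 4.87 and 7.98 FPKM in Ctrl mice (log2 change -1.01 ± 0.305 SE, limma FDR 0.0229). For both genes the lowest value was that of OEx replicate 3 and the highest that of Ctrl replicate 3. Wnt2, Sfrp2 and Dkk3 were also highest in Ctrl replicate 3, the mouse with the seminal vesicle genes given above. The smooth muscle sum was 1277, 1252 and 2671 FPKM in Ctrl replicates 1, 2 and 3, and its part in these values was not tested. Without OEx replicate 3 the log2 fold changes were -0.77 and -0.70, and without Ctrl replicate 3 they were -0.90 and -0.82, so that neither was called in either fit. The leading Frizzled gene was Fzd1 in each Ctrl mouse, with 31.4% to 40.7% of the summed Frizzled FPKM, and Fzd6 in each OEx mouse, with 31.8% to 45.1%. The sum itself overlapped between groups, at 49.4 to 58.9 FPKM in OEx and 48.1 to 54.4 FPKM in Ctrl mice.

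The remaining Frizzled genes moved less. Fzd8 was at 4.04, 4.25 and 6.13 FPKM in OEx and at 3.46, 3.60 and 3.58 FPKM in Ctrl mice, with no overlap and an FDR of 0.0822 with limma. Fzd3, Fzd4, Fzd5 and Fzd7 overlapped between groups, with log2 fold changes from -0.09 to 0.10. Under the filter, Fzd10 had 10, 17 and 32 reads in OEx and 65, 57 and 44 reads in Ctrl mice, and limma-voom called it lower (log2 change -2.20, limma-voom FDR 0.00527). Fzd9 had 4, 3 and 0 reads against 11, 7 and 12. Of the co-receptors, Lrp6 was at 8.00, 7.64 and 8.73 FPKM in OEx and at 3.86, 4.05 and 4.54 FPKM in Ctrl mice. All OEx mice were higher, and the log2 change of 0.83 (SE 0.0951, limma FDR 3.71e-04) lay under the fold criterion. Lrp6 passed it under the other scalings, at 1.49 with library totals, 1.11 with totals without the 20 most abundant genes and 1.06 with the upper quartile. Lrp5 overlapped between groups, at 12.4 to 14.5 FPKM in OEx and 8.14 to 12.7 FPKM in Ctrl mice (log2 change 0.26, limma FDR 0.214).

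Of the 8 secreted modulators tested, 3 were called lower and 1 higher. Wif1, which binds Wnt ligands outside the cell, showed the lowest log2 fold change of all Wnt genes tested. It was at 2.77, 3.26 and 5.36 FPKM in OEx and at 19.3, 20.8 and 23.7 FPKM in Ctrl mice. The groups stood far apart, with a Ctrl mean 5.59 times that of OEx mice (log2 change -2.24 ± 0.203 SE, limma FDR 1.41e-04). Wif1 lies on chromosome 10 from 121033960 to 121100650. Dkkl1, a relative of the Dkk genes known from testis, was at 0.0954, 0.139 and 0.176 FPKM in OEx and at 1.07, 2.79 and 2.88 FPKM in Ctrl mice, with 3 to 5 reads per OEx mouse (log2 change -1.46 ± 0.260 SE, limma FDR 0.00255). Sfrp2, whose exons overlap an antisense gene, was at 2.84, 2.38 and 1.08 FPKM in OEx and at 5.94, 5.74 and 10.1 FPKM in Ctrl mice (log2 change -1.42 ± 0.291 SE, limma FDR 0.00465). Dkk3 was at 2.09, 2.10 and 0.775 FPKM in OEx and at 2.97, 2.83 and 5.58 FPKM in Ctrl mice, below the fold criterion (log2 change -0.85, limma FDR 0.0410).

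A further pattern set OEx replicate 3 apart from the other OEx mice. Sfrp1, a soluble Frizzled-related inhibitor, reached 22.0 FPKM in both OEx replicate 1 and OEx replicate 2, and was at 1.61 FPKM in OEx replicate 3 and at 1.79, 1.89 and 2.72 FPKM in Ctrl mice. OEx replicate 3 thus lay below all Ctrl mice, and Sfrp1 was not called (log2 change 1.84 ± 0.829 SE, limma FDR 0.0888). Sfrp4 was at 3.85, 3.54 and 0.0663 FPKM in OEx and at 0.0574, 0.0924 and 0.236 FPKM in Ctrl mice (log2 change 1.35 ± 0.572 SE, limma FDR 0.0751). Dkk2, a ligand of Lrp5 and Lrp6, was at 3.42, 3.49 and 0.778 FPKM in OEx and at 0.194, 0.396 and 0.604 FPKM in Ctrl mice. It kept apart from Ctrl mice in all 3 OEx mice and was called higher (log2 change 1.24 ± 0.374 SE, limma FDR 0.0234). Leaving out OEx replicate 1, OEx replicate 2, Ctrl replicate 1 or Ctrl replicate 2 ended the call of Dkk2, with limma FDRs up to 0.0758. With all mice kept, Dkk2 was not called by limma-voom on recovered reads (limma-voom FDR 0.0554). It was not called without the expression filter either (limma FDR 0.0507). Without OEx replicate 3, Sfrp1 and Sfrp4 were called higher, with log2 fold changes of 2.89 and 2.06. That fit leaves out the mouse that sets the pattern, so its calls restate the values above. With all mice, limma-voom called neither gene (limma-voom FDR 0.204 for Sfrp1 and 0.332 for Sfrp4). In all, 8 of the 37 tested Wnt genes (21.6%) had under 0.5 times the FPKM in OEx replicate 3 that they had in both other OEx mice, against 5.53% of all tested genes. They were Sfrp1, Sfrp2, Sfrp4, Dkk2, Dkk3, Wnt2, Wnt9a and Fzd2. In the list of other Wnt pathway genes described below, 3 of the 51 tested genes met the same criterion. The summed fibroblast markers (249.8, 252 and 25.1 FPKM) and the summed immune markers (20.9, 20.0 and 5.45 FPKM) were also lowest in OEx replicate 3 among the OEx mice. So were the sums of smooth muscle (505, 501 and 419 FPKM) and endothelial markers (6.65, 7.02 and 5.83 FPKM). Sums of epithelial (1631, 1626 and 2063 FPKM), prostate luminal (2951, 2625 and 5496 FPKM) and basal markers (6.79, 7.05 and 15.9 FPKM) were highest in that mouse. Frzb, a Frizzled-related gene outside the rule that was chosen after its values were seen, was at 2.38, 2.08 and 0.103 FPKM in OEx mice and at most 0.529 FPKM in Ctrl mice. Sfrp5 overlapped between groups, at 0.875 to 1.11 FPKM in OEx and 0.673 to 1.32 FPKM in Ctrl mice. Dkk1 had no read in any mouse, and Dkk4 had 1 read in OEx replicate 3 only.

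**Figure D4:**
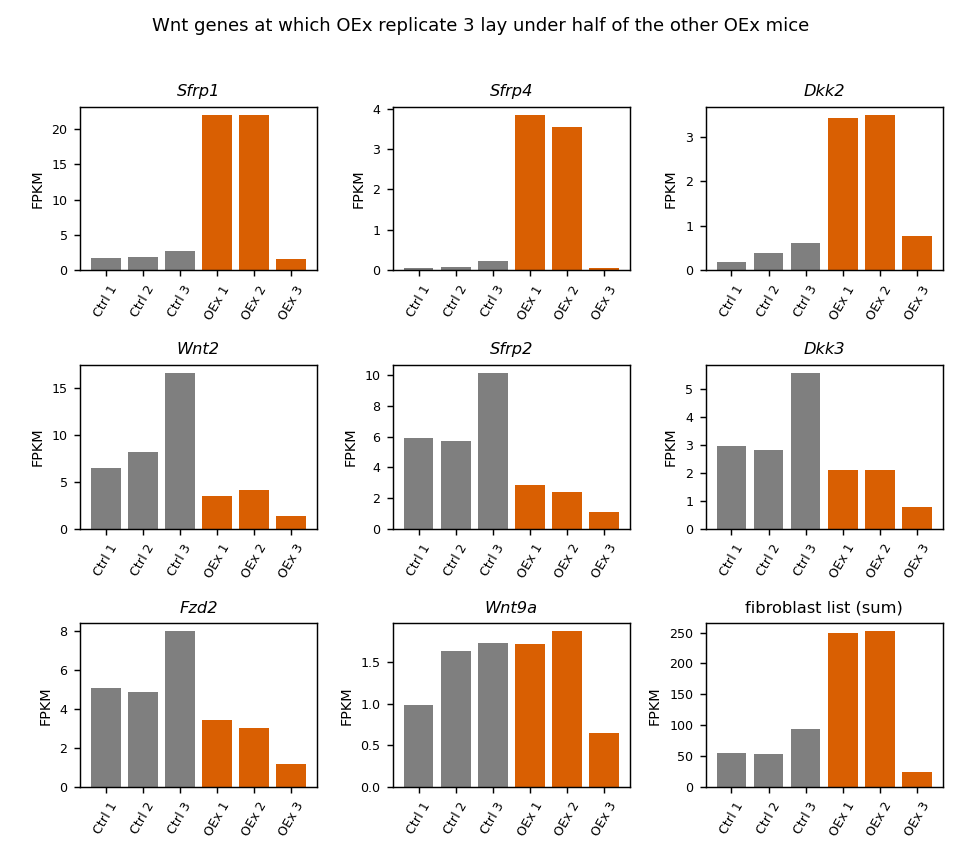
FPKM in each mouse (bars, Ctrl grey and OEx orange, linear axes from 0) for the 8 tested Wnt genes at which OEx replicate 3 lay under 0.5 times both other OEx mice, and for the sum of 6 fibroblast markers. Sfrp1, Sfrp4 and Dkk2 are high in OEx replicates 1 and 2 only, and Wnt2, Sfrp2, Dkk3 and Fzd2 are highest in Ctrl replicate 3. Within the fibroblast sum, Dcn and Pdgfra, unlike the other markers, were highest in Ctrl replicate 3.

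The genes of receptor turnover moved in opposite directions. Lgr4, a receptor of R-spondins on chromosome 2 from 109917647 to 110014257, was at 12.4, 12.2 and 16.2 FPKM in OEx and at 3.60, 3.28 and 4.03 FPKM in Ctrl mice. It was higher in all OEx mice by a factor of 3.74 in the means (log2 change 1.65 ± 0.131 SE, limma FDR 9.27e-05). Its relative Lgr5, known as a stem cell marker in gut and hair, was at 0.249, 0.277 and 0.578 FPKM in OEx and at 2.34, 2.12 and 0.942 FPKM in Ctrl mice. The log2 fold change of Lgr5 was just past the fold criterion (-1.004 ± 0.238 SE, limma FDR 0.00892). Rnf43, a ubiquitin ligase for Frizzled receptors, was at 3.21, 3.32 and 4.74 FPKM in OEx and at 9.39, 8.34 and 8.14 FPKM in Ctrl mice (log2 change -1.03 ± 0.142 SE, limma FDR 8.15e-04). Znrf3, which has the same function, overlapped between groups at 4.86, 5.10 and 6.71 against 4.93, 4.77 and 3.64 FPKM (log2 change 0.27, limma FDR 0.159). Within the sum of these 4 genes, Lgr4 took 57.3% to 59.9% in OEx and 17.7% to 24.0% in Ctrl mice, and Rnf43 15.5% to 16.8% against 45.1% to 48.6%. Rnf43 lost the fold criterion without OEx replicate 1, OEx replicate 2 or Ctrl replicate 1, with log2 fold changes down to -0.95, and Lgr5 without OEx replicate 1 or 2 or Ctrl replicate 1 or 2, down to -0.86. Both kept limma FDRs of at most 0.0351 in every fit without 1 mouse.

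Inside the cell, Apc was called higher and Axin2 and Ctnnb1 passed the FDR alone. Apc, a part of the destruction complex, was at 5.24, 4.97 and 6.29 FPKM in OEx and at 2.06, 2.45 and 1.93 FPKM in Ctrl mice (log2 change 1.04 ± 0.119 SE, limma FDR 3.58e-04). Without OEx replicate 3 or Ctrl replicate 3 it fell under the fold criterion, to 0.96 without the former and to 0.995 without the latter. Ctnnb1, which encodes beta-catenin and whose exons overlap other genes, was the most abundant Wnt gene in every mouse, at 82.7, 81.3 and 83.8 FPKM in OEx and at 63.1, 63.2 and 52.4 FPKM in Ctrl mice. All OEx mice were higher (log2 change 0.47 ± 0.0978 SE, limma FDR 0.00506). Axin1 overlapped between groups, at 13.9 to 15.7 FPKM in OEx and 13.6 to 18.9 FPKM in Ctrl mice. Axin2, a direct target of canonical signaling that feeds back on it, was at 29.5, 31.0 and 37.6 FPKM in OEx and at 20.5, 22.1 and 13.2 FPKM in Ctrl mice. All OEx mice were higher, and the change lay under the fold criterion (log2 change 0.80 ± 0.200 SE, limma FDR 0.0110). Axin2 was called higher under the other scalings, at 1.55 with library totals, 1.13 with totals without the 20 most abundant genes and 1.07 with the upper quartile. Exons of Axin2 overlap an antisense gene.

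Of the nuclear factors, Tcf7 was at 5.40, 4.83 and 5.40 FPKM in OEx and at 15.8, 15.4 and 12.2 FPKM in Ctrl mice, and was called lower (log2 change -1.31 ± 0.118 SE, limma FDR 1.38e-04). Tcf7l2 was at 4.37, 4.24 and 5.23 FPKM in OEx and at 3.16, 3.18 and 2.49 FPKM in Ctrl mice, higher by the FDR alone (log2 change 0.51, limma FDR 0.00895). Tcf7l1 overlapped between groups at 3.76 to 4.91 and 3.14 to 4.85 FPKM. Lef1, under the filter, was at 0.160, 0.154 and 0.0378 FPKM in OEx and at 0.327, 0.272 and 0.622 FPKM in Ctrl mice, and limma-voom called it lower (log2 change -1.91, limma-voom FDR 0.0244). Tcf7 made up 34.7% to 39.3% of the summed Tcf and Lef FPKM in OEx mice and 60.6% to 70.5% in Ctrl mice. Tcf7l2 made up 31.7% to 33.6% against 12.3% to 14.1%.

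A list of 69 other Wnt pathway genes was examined beside these. It covers ligand secretion, R-spondins, other extracellular regulators, cytoplasmic transduction, nuclear cofactors and planar polarity. Of the 51 tested, 5 were called higher and 8 lower (25.5%, against 28.6% of all tested genes), and the median log2 fold change was -0.08. Nkd1, which binds Dishevelled and dampens Wnt signaling, showed the largest change, from 85.8, 85.5 and 54.6 FPKM in Ctrl to 3.23, 3.17 and 4.07 FPKM in OEx mice (log2 change -4.06 ± 0.194 SE, limma FDR 2.64e-05). Apcdd1, a membrane inhibitor of Wnt signaling, was at 0.732 to 0.878 FPKM in OEx and 5.55 to 8.68 FPKM in Ctrl mice (log2 change -2.22, limma FDR 7.15e-05). Sost, an inhibitor that binds Lrp5 and Lrp6, had 0, 0 and 2 reads in OEx and 43, 50 and 106 reads in Ctrl mice. The polarity receptor Ptk7 (-1.49) and the transcription factor Sp5 (-1.44) were called lower with limma FDRs of 0.00189 and 7.72e-04. Among the genes called higher, the polarity cadherin Celsr2 had a log2 fold change of 1.75, the secreted Cthrc1 of 1.66 and the beta-catenin cofactor Bcl9l of 1.35. Celsr2 was at 4.91, 5.52 and 5.34 FPKM in OEx and at 0.785, 0.892 and 0.903 FPKM in Ctrl mice. For Cthrc1 the OEx mice gave 103, 136 and 40 reads and the Ctrl mice 2, 3 and 5. Ctnnbip1 and Prickle3 were also called higher, and Notum, Csnk1g2 and Cby1 lower, with log2 fold changes between 1.01 and 1.17 in size. Exons of Bcl9l, Ctnnbip1, Prickle3 and Notum overlap antisense genes. Of the R-spondins, the secreted partners of Lgr4 and Lgr5, only Rspo3 passed the filter, at 1.43, 1.09 and 0.914 FPKM in OEx and at 1.63, 2.45 and 4.96 FPKM in Ctrl mice (log2 change -0.83, limma FDR 0.0447), below the fold criterion. Rspo2, under the filter, had 5, 4 and 8 reads in OEx mice against 47, 41 and 91 in Ctrl mice.

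From both lists, 10 genes known as targets or feedback regulators of canonical Wnt signaling are set side by side. They were picked after their values were seen, so they are a description of these genes and not of such targets as a group. Nkd1, Apcdd1, Sp5, Notum, Tcf7, Rnf43 and Lgr5 were called lower, Lef1 was lower in every OEx mouse and under the filter, Znrf3 overlapped between groups, and Axin2 was higher in every OEx mouse. Over all tested genes, 15.7% were called lower and 38.9% were lower in every OEx mouse. With library totals Nkd1 (-3.37) and Apcdd1 (-1.69) were still called lower, Sp5 (-0.73), Notum (-0.85), Tcf7 (-0.61), Rnf43 (-0.37) and Lgr5 (-0.66) were under the fold criterion, and Axin2 was called higher. Axin2 stood at 32.7 ± 4.33 FPKM (SD, n = 3) in OEx and 18.6 ± 4.72 FPKM (SD, n = 3) in Ctrl mice. Nkd1 stood at 3.49 ± 0.505 FPKM (SD, n = 3) in OEx and 75.3 ± 17.9 FPKM (SD, n = 3) in Ctrl mice. In Ctrl mice Nkd1 was thus above Axin2 in each mouse, and in OEx mice below it in each mouse, on the FPKM scale, which is per length of gene.

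**Figure D5:**
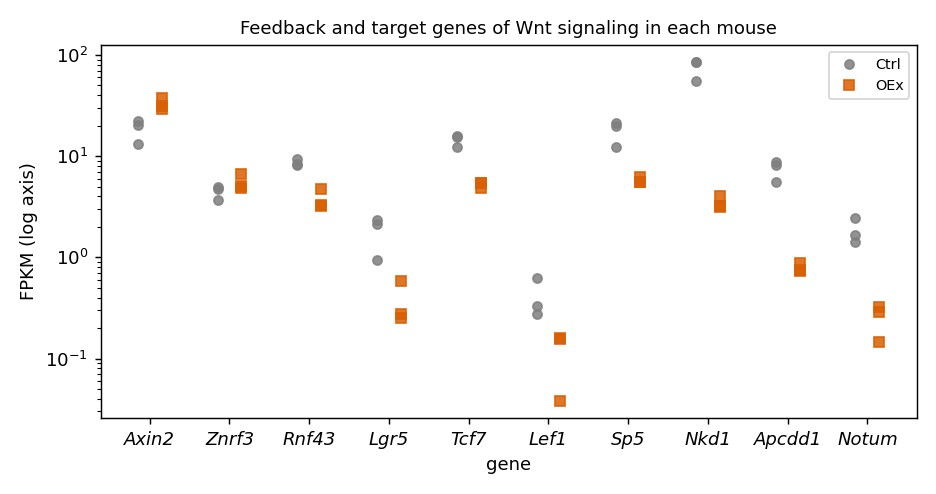
FPKM in each mouse (points, log axis, Ctrl grey circles and OEx orange squares, 3 mice per group) of 10 genes known as targets or feedback regulators of canonical Wnt signaling. Axin2 is higher in all 3 OEx mice, Znrf3 overlaps, and the other 8 genes are lower in all 3 OEx mice.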

How the data were processed

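RNA-seq of whole AP from 3 OEx and 3 Ctrl mice at 20 weeks was analysed. For each mouse the authors deposited FPKM per gene, made with an in-house pipeline whose use of strand is not stated. The submitters' processing notes name CASAVA, HISAT2 2.0.5, featureCounts 1.5.0-p3 and StringTie 1.3.3b without roles, and a genome build is not given in the sources used here. Rows were matched by symbol to GENCODE M21 (GRCm38), which placed 53636 of 55076 rows. Reads were recovered as FPKM times exon length divided by the value of 1 read. Between 96.9% and 97.5% of values under 1000 reads were then whole within 0.05 reads, so coordinates are given on this build. The deposited values carry a scaling between mice, with denominators of 0.726 to 1.35 times the recovered reads.

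The 12833 rows whose mean reached 1 FPKM entered a linear model of log2(FPKM + 1) (limma 3.58.1, R 4.3.3) with eBayes and an intensity trend, and p-values were adjusted over all of them (Benjamini-Hochberg). Calls needed an FDR under 0.05 and a fold change over 2, the criteria stated in the methods of the study. With 3 mice a side, a two-sided exact permutation p is at least 0.1, and this test was not used for calls. Every member is accounted for in the text, called ones with their statistics, and up to 8 other pathway genes with the largest changes are given with values. Members and lists were chosen with earlier results of these data known. The labels do not say whether mice came from separate litters, and p-values measure the spread between these mice. Python 3.11.15 served for tables and figures, with pandas 2.3.3, numpy 2.4.6 and matplotlib 3.10.9. Fits tested on simulated data, with 3 mice each and 12669 genes, recovered 98.5% of 200 genes changed by 2 on the log2 scale and called 8 unchanged genes. The simulation gave all genes the same dispersion, with no deviating mouse and no shift in library make-up. It checks that the fits run as intended and does not give the power or error rate of the calls here.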

Additional observations from a re-analysis of the deposited data

How the results depend on the processing

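Over the fits that left out 1 mouse each, 4 to 6 of 37 Wnt genes were called higher, against 12.6% to 13.4% of all genes. In these fits 9 to 10 were called lower, against 15.5% to 15.9% of all genes. Of the 16 called genes, 10 kept their call in all 6 fits. Without replicate 3 of both groups, an alternative chosen after seeing the data, 6 were higher and 7 lower, against 14.2% and 16.5% of all genes. There Apc, Fzd1, Fzd2, Sfrp2 and Wnt2 were no longer called and Sfrp1 and Sfrp4 were called. The scaling between mice changed the counts most. With library totals 11 of 37 were higher and 4 lower, and of the 51 other pathway genes 19 were higher and 3 lower, against 30.6% higher and 4.59% lower over all genes. Library totals without the 20 most abundant genes and upper-quartile scaling each gave 7 lower, against 9.38% and 10.3% of all genes. With the FDR alone, 10 Wnt genes were higher, and 16 other pathway genes were higher and 14 lower, against 30.7% and 36.5% of all genes. Limma-voom on recovered reads called 15 of 62 other pathway genes lower and 14 of 41 Wnt genes lower, against 17.6% of all genes. The other alternatives left the counts within 1.5 times.

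Deviations from the group mean correlated at -0.194, -0.189 and -0.307 for same-numbered mice and at -0.229 to 0.271 for differently numbered mice. With 3 mice a side such values cannot show whether the replicate numbers pair the mice. With the replicate block, 4 Wnt genes were called higher and 9 lower, against 12.6% and 15.5% of all genes. Dkk2, Fzd2 and Wnt2 were not called there.

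Signs changed only for genes not called. With library totals Wnt5a was at 0.033, Wnt7b at 0.64, Wnt9a at 0.40, Fzd7 at 0.62, Sfrp5 at 0.38 and Axin1 at 0.56 on the log2 scale. Without the 20 most abundant genes in the totals, Wnt7b was at 0.22, Wnt9a at 0.15, Fzd7 at 0.22, Sfrp5 at 0.16 and Axin1 at 0.15. With upper-quartile scaling they were at 0.17, 0.12, 0.16, 0.13 and 0.092. Sfrp5 was at 0.0031 with a pseudocount of 0.1. Without replicate 3 of both groups, Wnt9a was at 0.29, Fzd5 at -0.12 and Sfrp5 at 0.14, while Wnt7b at -0.42 and Fzd7 at -0.39 kept their sign. Over the fits without 1 mouse, Wnt7b ran from -0.29 to 0.040, Wnt9a from -0.19 to 0.21, Fzd4 from -0.049 to 0.11, Fzd5 from -0.098 to 0.15, Fzd7 from -0.27 to 0.033, Sfrp5 from -0.15 to 0.089 and Tcf7l1 from -0.072 to 0.18. The cause was not tested. Genes with under about 10 reads per mouse, such as Wnt6 and Dkkl1 in OEx mice, are limited by depth.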
